A study of Homo sapiens with 35 samples.

Results

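Open chromatin was examined at 10 genes of the BCL2 family, which decide whether a cell enters apoptosis. They were taken by name and are 10 of 19974 protein-coding genes on chromosomes 1 to 22 and X. The 4 protectors are MCL1, BCL2, BCL2L1 and BCL2A1, the 2 killers are BAX and BAK1, and the 4 BH3-only genes are BCL2L11, BBC3, PMAIP1 and BID. For each gene, peaks were collected over the gene, within 1 kb of its ends, and within 50 kb on either side, which gave 359 peaks of the 308732 in the list. No peak was counted for more than 1 of the genes.

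The series applies ATAC-seq, in which a transposase cuts accessible DNA, to blood progenitors derived from the established human embryonic stem cell line H1, and its question is the effect of ectopic MYC, switched on by doxycycline. Of the 35 labelled libraries (44 by the design text), 12 are of the doxee17 line with doxycycline, 11 of doxee17 without it (both batch 1) and 12 of H1 without it (batch 2), sampled at 6 times between days 10 and 20. Only 1 pooled peak list, with no value per library, was used here. The effect of doxycycline was therefore not measurable, and every value below lacks a replicate error.

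BCL2 family proteins meet at the outer mitochondrial membrane. BAX and BAK1 form pores there that release cytochrome c, which starts caspase activation. BCL2, BCL-XL (from BCL2L1), MCL1 and BFL1 (from BCL2A1) hold BAX and BAK1 in check, and the BH3-only proteins BIM (BCL2L11), PUMA (BBC3), NOXA (PMAIP1) and BID block the protectors or activate the killers. In blood, MCL1 keeps stem cells and neutrophils alive and BCL-XL keeps platelets and maturing red cells alive. MYC sensitises cells to apoptosis, and loss of this brake is a known step in MYC-driven tumours.

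The DNA before the starts of 6 members is shown because their sequences differ in CpG content and in E-boxes, the CACGTG sites that MYC and its partner MAX recognise, among other factors of the same class. Sequences are from RefSeq on GRCh38.p14, 5′ to 3′ on the strand of the gene, and end, where 250 bases are given, at the base before the outermost start in the promoter table. The promoter table used holds no MCL1 entry. Capitals mark E-boxes in BAX, BBC3 and BID, GC boxes and a CCAAT box (as ATTGG on the opposite strand) in BAK1, a TATA box in BCL2A1, and GC boxes in PMAIP1. The BAX stretch is chr19:48954625-48954874 (plus strand), BAK1 chr6:33580277-33580526 (minus), BCL2A1 chr15:79971197-79971446 (minus) and PMAIP1 chr18:59899746-59899995 (plus). The short BBC3 stretch is chr19:47232882-47232911 (minus) and the short BID stretch chr22:17774072-17774101 (minus).
BAX: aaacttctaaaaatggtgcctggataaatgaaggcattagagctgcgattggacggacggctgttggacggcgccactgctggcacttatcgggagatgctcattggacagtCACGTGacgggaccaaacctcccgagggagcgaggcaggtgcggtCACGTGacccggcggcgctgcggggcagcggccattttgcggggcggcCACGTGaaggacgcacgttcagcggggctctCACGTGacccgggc
BAK1: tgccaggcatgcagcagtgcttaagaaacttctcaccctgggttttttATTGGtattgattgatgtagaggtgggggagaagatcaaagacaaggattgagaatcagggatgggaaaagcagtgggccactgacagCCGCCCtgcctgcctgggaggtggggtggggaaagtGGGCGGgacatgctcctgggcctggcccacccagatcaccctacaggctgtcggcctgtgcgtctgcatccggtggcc
BCL2A1: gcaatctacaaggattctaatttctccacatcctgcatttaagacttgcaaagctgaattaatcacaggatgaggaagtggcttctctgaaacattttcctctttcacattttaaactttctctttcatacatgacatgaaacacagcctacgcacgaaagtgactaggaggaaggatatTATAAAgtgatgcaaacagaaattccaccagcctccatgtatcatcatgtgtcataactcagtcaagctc
PMAIP1: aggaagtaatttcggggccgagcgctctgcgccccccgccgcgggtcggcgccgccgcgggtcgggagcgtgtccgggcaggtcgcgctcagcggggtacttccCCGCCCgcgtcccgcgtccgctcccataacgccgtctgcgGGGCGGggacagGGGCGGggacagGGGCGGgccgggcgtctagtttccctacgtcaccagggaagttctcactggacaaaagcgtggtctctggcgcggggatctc
BBC3: atggggagatttCACGTGagatatagatta
BID: ttgtgtcctctcCACGTGgcctggggattc

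Every value of accessibility below is the authors' fold enrichment of a peak at its summit, the position of highest signal, over a single background for the genome. In all 10 genes a summit lay 1 kb or less from an end, against 83.0% of coding genes, and for the 9 with a start in the promoter table it lay as close to a start in 8, against 81.7%. The exception was BID. Any peak over these windows was found for 10 of 10, against 87.6%. Taking the highest such fold, 7 of the 10 lay above the median of coding genes, which was 43.5-fold (50.0% of coding genes do). The median of the 10 was 85.8-fold. Protectors had a median of 109-fold and ranged from 31.3 to 261, killers had 93.3-fold with nearly equal values, and BH3-only genes had 47.0-fold and ranged from 3.21 to 110.4. The ranges of the protectors and the BH3-only genes overlapped. By the annotated starts in the promoter table alone, which leaves out MCL1, the protectors' median was 50.5-fold over 3 genes, below the killers' 93.3. The BH3-only median was then 41.1-fold. Protectors and BH3-only genes both lay below the coding-gene median by this measure, 56.2-fold. No test was made between the 3 roles, since the list holds no replicates and genes are not replicates of a role.

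**Figure D1:**
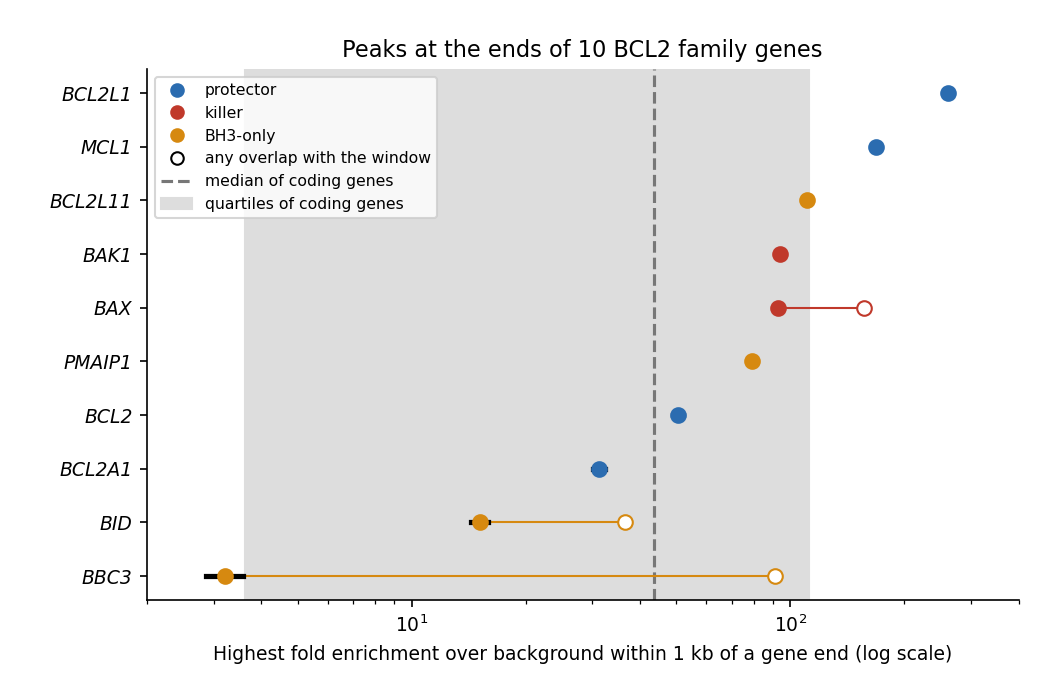
Highest fold enrichment within 1 kb of a gene end (x axis, log scale) for each of the 10 genes (y axis), coloured by role; black bars are exact Poisson 95% intervals of the peak, mostly hidden by the points, and open circles count any peak that overlaps the window. BCL2L1 at 261-fold and MCL1 at 168-fold stand right of the coding-gene quartiles, and BBC3 moves from the left edge to 91.0-fold when any overlap counts.

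BCL2L1 (chromosome 20, 31664452 to 31723963) had the highest fold of the 10. Its 5′ peak reached 261-fold (exact Poisson 95% interval 258 to 264, which covers counting error only), at the 98.1st percentile of coding genes. That peak was 16715 bp wide (31707848 to 31724562), and its summit lay 129 bp inside the outermost start. A second wide peak of 15949 bp lay deep in the gene, 153-fold at its summit, and peaks of 69.7-fold and 58.4-fold stood between them. A peak of 84.6-fold ran over the 3′ end with its summit 2.66 kb beyond it. Together, peaks covered 90.1% of the 59.5 kb gene, against a median of 12.6% over coding genes. Of 24 other coding genes within 500 kb on 20q11.21, none had a higher fold at an end; their median was 24.8-fold, and the highest was PDRG1 at 185-fold.

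MCL1 (chromosome 1, 150574558 to 150579610) lay wholly under a single peak of 32507 bp (150548106 to 150580612) with 168-fold at its summit, 135 bp outside the gene's end with the higher coordinate. MCL1 is transcribed from that end, which is general knowledge and not in the tables used. The peak reached 31.5 kb from that end, far past the 5.05 kb gene, and also ran over an end of the coding gene ADAMTSL4. Its width therefore does not describe MCL1 alone. Only 8 of 308145 peaks were as wide or wider, itself included. Of coding genes, 0.0451% had an end under a peak of 30 kb or more. Both MCL1 and BCL2L1 were covered to 90% or more, which held for 3.74% of coding genes. MCL1 stood above 26 of its 32 coding neighbours within 500 kb, and the highest of these, ARNT, reached 236-fold.

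BCL2 (chromosome 18, 63123346 to 63320090) is the longest of the 10 at 197 kb. Its 5′ peak reached 50.5-fold (63319300 to 63321891), and its summit lay 168 bp outside the gene's outer end. Inside the gene, more than 1 kb from its ends, lay 48 peaks, or 24.6 per 100 kb, against a median of 13.7 per 100 kb over coding genes of 10 kb or more. These were weaker than its 5′ peak: the median was 3.99-fold, 19 reached 5-fold, and the highest was 39.4-fold. The next were 27.9-fold and 26.7-fold, so the 5′ peak was the highest over the gene, although peaks covered only 18.6% of it.

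BCL2A1 (chromosome 15, 79960892 to 79971196) encodes a protector that is induced by NF-kB signalling in myeloid and lymphoid cells. Its 5′ peak reached 31.3-fold, with the summit 32 bp outside the start. An almost equal peak of 30.5-fold and 3084 bp lay inside the gene, and one of 20.9-fold lay near its 3′ end. Neither was as high as the 69.8-fold peak of 2711 bp (79977057 to 79979767) that lay 6.43 kb upstream of the start. BCL2A1 was 1 of 3 members whose highest distal peak exceeded the peaks at their ends. The others were BBC3 and BID.

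The killers had nearly identical values at their starts. BAK1 (chromosome 6, 33572552 to 33580276) had 93.9-fold with the summit 16 bp inside the start, and BAX (chromosome 19, 48954875 to 48961798) had 92.6-fold with the summit 113 bp before it. Their Poisson intervals, 92.0 to 95.9 and 90.7 to 94.6, overlapped, so their order is not resolved by counting error. In the order of all 10 they were the only neighbours whose intervals overlapped. The surroundings of the killers differed. BAK1 had an internal peak of 39.9-fold and a 73.5-fold peak with its summit 1.23 kb beyond the 3′ end, just outside the 1 kb window. The BAX 3′ end lay instead under a 10716 bp peak of 156-fold (48960750 to 48971465), whose summit stood 48 bp from an end of FTL, the ferritin light chain gene.

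Of the BH3-only genes, BCL2L11 (chromosome 2, 111120914 to 111168445) had the highest 5′ peak, 110.4-fold over 6687 bp (111116923 to 111123609), with the summit 165 bp before the start. The same peak ran over an end of the coding gene ACOXL, so its width does not describe BCL2L11 alone. The 16 internal peaks of BCL2L11 were weak, with a median of 1.94-fold and a highest value of 10.4-fold. Near the 3′ end 11.4-fold was reached. PMAIP1 (chromosome 18, 59899996 to 59904305) had 79.0-fold with the summit 168 bp before the start and 29.8-fold beyond its 3′ end. Both stood above every coding neighbour within 500 kb, of which BCL2L11 has 3 and PMAIP1 has 2. Other members stood lower among theirs: at their ends BBC3 was below 20 of 22 neighbours, BID below 6 of 8, BAK1 below 18 of 28, BCL2A1 below 4 of 7, BAX below 18 of 54 and BCL2 below 3 of 10.

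BBC3 (chromosome 19, 47220824 to 47232860) and BID (chromosome 22, 17734138 to 17774665) had low values at their ends and strong peaks close by. At the annotated BBC3 start the fold was 3.21 (Poisson interval 2.86 to 3.59), at the 23.9th percentile of coding genes, in a narrow peak of 566 bp. A peak of 6593 bp and 91.0-fold (47225494 to 47232086) filled the 5′ part of the gene, with its summit 5.61 kb inside. The promoter table gives a single BBC3 start, which lies outside the wide peak. BID had a 15.1-fold summit only at its 3′ end. Its 5 annotated starts, which lie within a single cluster, were all under a 36.6-fold peak of 4434 bp (17771293 to 17775726), whose summit lay 2.91 kb inside the gene. When any overlap with the window counted, the BH3-only median was 85.0-fold and the killers' was 125-fold, with the peak at FTL counted for BAX, while the protectors' remained at 109-fold. Coding genes then had a median of 56.1-fold.

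**Figure D2:**
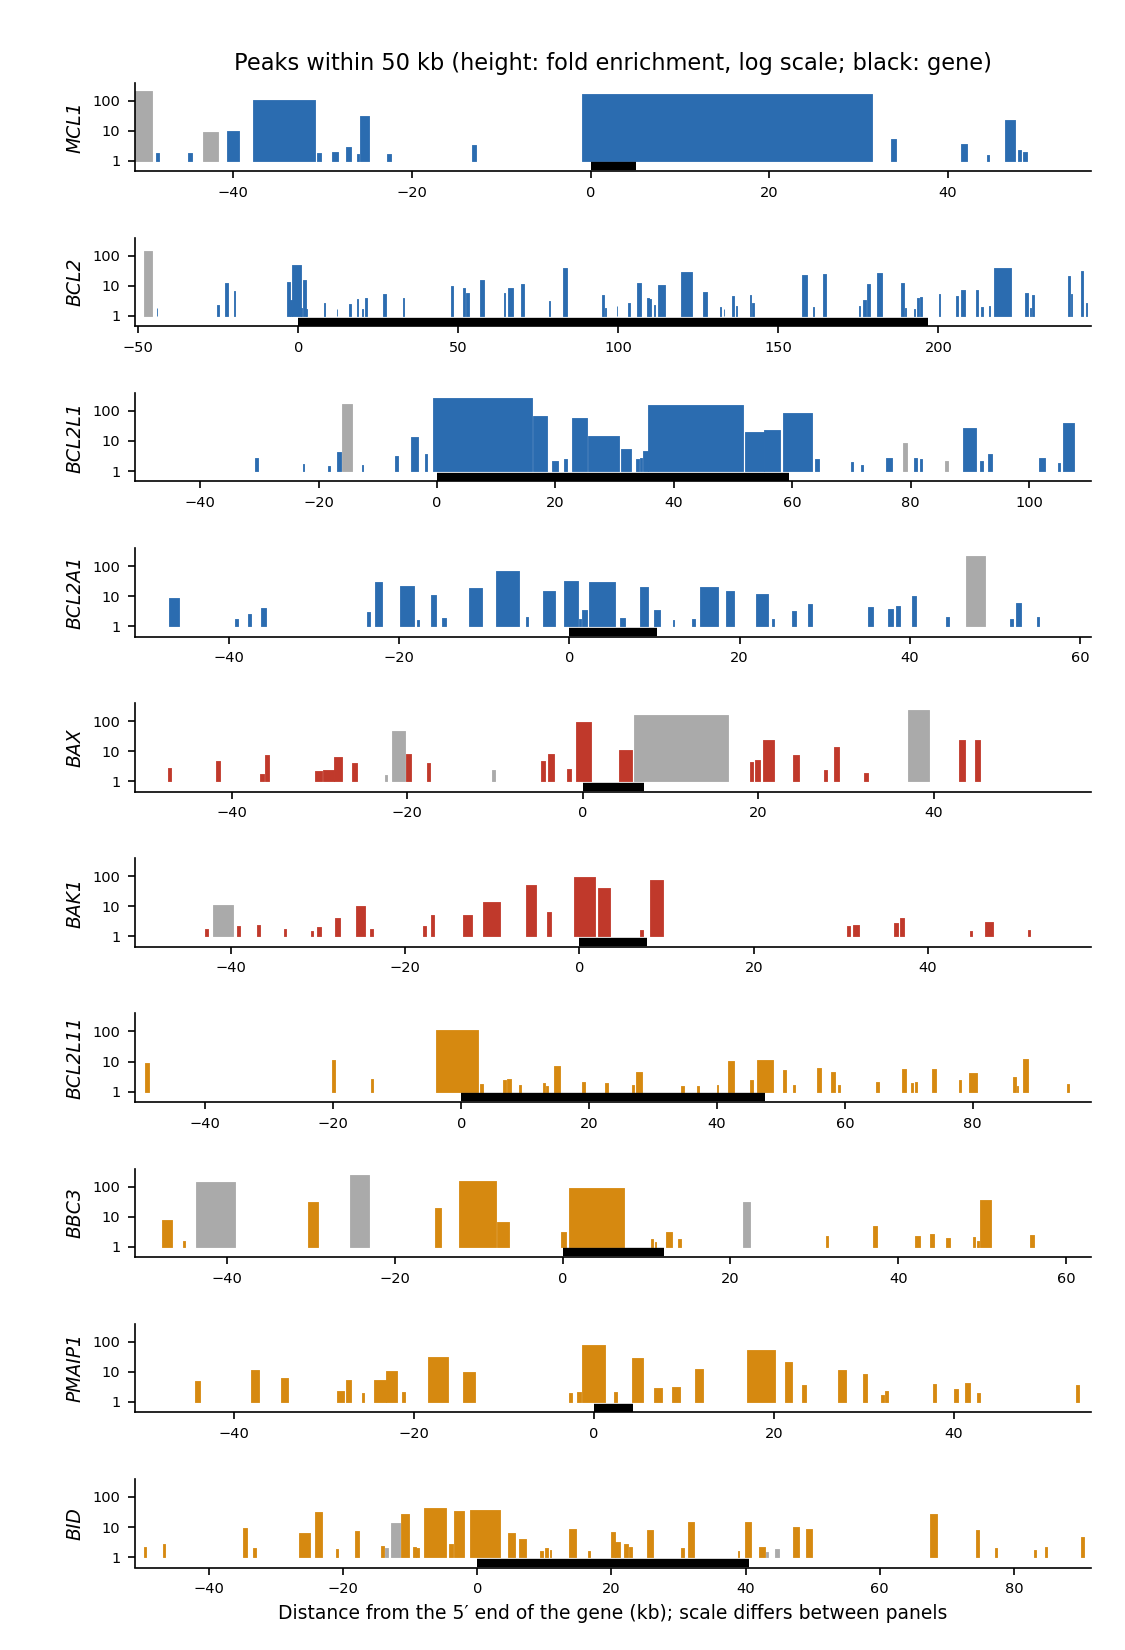
Peaks around each of the 10 genes, with the distance from the gene's 5′ end in kb on the x axis (scales differ between panels) and fold enrichment on the y axis (log scale). Black bars are the genes, blocks coloured by role (blue protectors, red killers, orange BH3-only) are peaks at, inside or distal to the gene, and grey blocks are peaks whose summit lies at another coding gene's end; MCL1 lies inside a block of 32.5 kb and BCL2L1 under 2 blocks of over 15 kb.

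The width of the peaks set some members apart more than their height. At an end, 3 members reached 100-fold or more (BCL2L1, MCL1 and BCL2L11), against 29.2% of coding genes. An end under a peak of 5 kb or more was found for 4 of 10 (MCL1, BCL2L1, BCL2L11 and, through the peak at FTL, BAX), against 7.23% of coding genes. For a width of 10 kb or more it was 3 of 10 (MCL1, BCL2L1 and BAX), against 1.54%. The MCL1 peak also ran over an end of ADAMTSL4, and the BCL2L11 peak over an end of ACOXL. The widths at MCL1, BCL2L11 and BAX are therefore shared with neighbouring genes. Over the length of the gene, BCL2A1, BBC3 and BAX were covered to 66.1%, 62.3% and 49.9%, and BAK1, PMAIP1, BID, BCL2L11 and BCL2 to 45.9%, 41.3%, 33.1%, 24.4% and 18.6%.

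Promoter sequence differed sharply between members whose peaks were alike. Over 300 bases, 250 before and 50 after the outermost start, the BAX promoter held 38 CpG dinucleotides and the BAK1 promoter 7, against a median of 22 over 15812 promoters of coding genes, yet their folds were 92.6 and 93.9. PMAIP1 (42 CpG), BCL2L11 (39), BAX and BCL2 (31) lay above that median, BCL2L1 had 20, and BAK1, BID (6), BBC3 (5) and BCL2A1 (2) lay below the lower quartile of 8. Folds at the end ran from 50.5 to 110.4 in the first 4 and from 3.21 to 93.9 in the last 4, so the ranges overlapped. The BID value of 15.1-fold is from its 3′ end, since no summit lay within 1 kb of its starts, whereas its CpG count is from the outermost start. BCL2L1, the highest of all in fold, lay between them in CpG count.

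**Figure D3:**
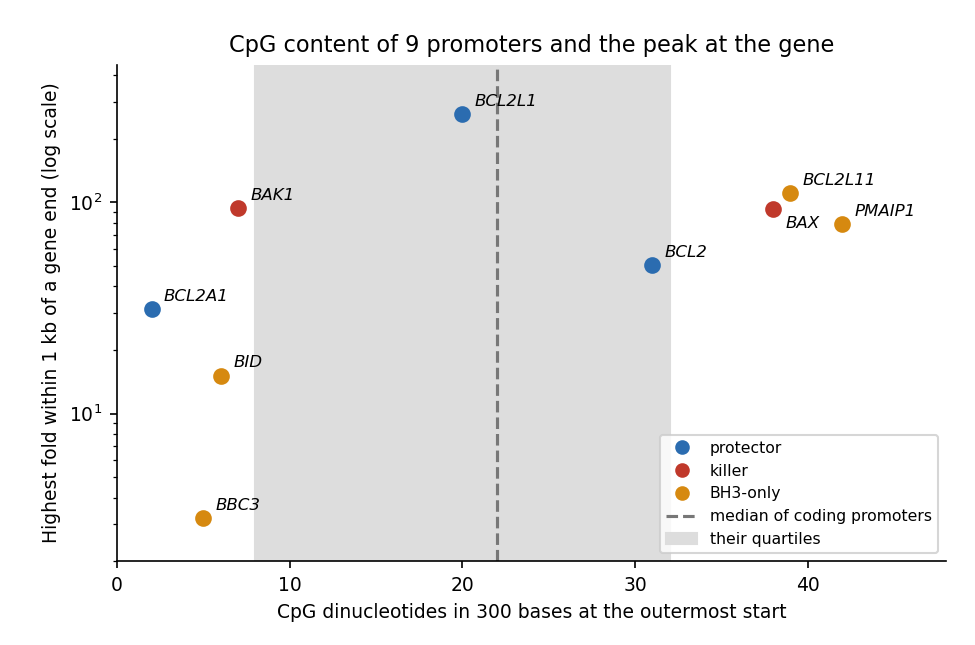
CpG dinucleotides in 300 bases at the outermost annotated start (x axis) against the highest fold within 1 kb of a gene end (y axis, log scale) for the 9 members in the promoter table. BAX and BAK1 share a height but have 38 and 7 CpG, and BCL2L1 lies highest with 20 CpG; the BID fold is from its 3′ end.

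The BAX promoter held 4 E-boxes, the most among the 9 members in the promoter table. They begin 138, 93, 45 and 14 bases before the start, and the summit of the BAX peak, 113 bases before the start, fell between the first and the second, 22.5 bases from the centre of each. At least 1 CACGTG (a palindrome, so alike on both strands) was found in 8.82% of the 15812 promoters. At least 4 were found in 5 promoters, or 0.0316%. The BBC3 promoter held 1 E-box, 232 bases before the start and under the 3.21-fold peak, and BID had 1 under its 36.6-fold peak, in the promoters of 2 of its inner starts but not of its outermost one. Such a match describes the letters only, and the list carries no measurement of MYC binding.

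Of the other 9 motifs searched on both strands, with 1 pair of overlapping matches over all 10, the GC box GGGCGG was found at 4 members (BAX, BAK1, BCL2L11 and PMAIP1; 58.3% of promoters) at the outermost start and CCAAT at 4 (BAX, BAK1, BCL2L11 and BBC3; 36.4%). GC boxes were also found at all 4 inner starts of BID and at the inner start of BCL2L1. TATAAA was found at BCL2A1, 70 bases before the start, and at BCL2L1, 125 and 208 bases before it (9.75% of promoters). TGTGGT, a RUNX core, was found at BCL2 and BCL2L1 (11.04%), and TGACTCA, an AP-1 site, at BBC3 alone of the 9 members (3.62%). AGATAA (7.63%), TGACGTCA (2.56%), the NF-kB consensus (6.37%) and the p53 consensus without a spacer (0.00632%, a single promoter) were found at the outermost start of none of the 9.

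Distal peaks, with a summit outside the gene and over 1 kb away from the ends of all coding genes, were numerous around the family. Within 50 kb on both sides, each of the 10 had more than the median of 14 over coding genes, a count that 47.6% of coding genes exceed, and 6 had more than the upper quartile of 20 (22.7% of coding genes). BCL2A1 had 30 and PMAIP1 28, at the 96.9th and 94.8th percentiles of coding genes. BID had 24, BAK1 23, BAX 22, BCL2L1 21, BCL2 20, BCL2L11 19, MCL1 17 and BBC3 16. Medians were 20.5 for protectors, 22.5 for killers and 21.5 for BH3-only genes. High counts were not particular to these genes. The 45 other apoptosis genes described below had a median of 18, with 30 above the coding-gene median. By list, inhibitors of apoptosis had 23, the death receptor pathway 20, other BCL2 family genes 17, and apoptosome and mitochondrial factors 15.5. Caspases had 14 and genes of MCL1 turnover 11. The 10 blood progenitor markers had 24.5, against 17 for pluripotency, 14 for endothelial, 10 for hepatocyte and 4 for mesenchymal markers. With only peaks of 5-fold or more, 8 of the 10 were above the median of coding genes, which was then 5, and with the more significant 50% of the peaks 7 were. The share at 5-fold or more was lowest at BCL2L1, 4 of 21. Within 20 kb, 8 of 10 were above the coding-gene median of 12.5 per 100 kb, and MCL1 had 2.5 per 100 kb, against 17 within 50 kb. On 1 side of MCL1 those 20 kb lay wholly under its own wide peak, whose summit is at the gene's end. Within 100 kb, 8 of 10 were above the coding-gene median of 14.5 per 100 kb, with BCL2 (13.5) and MCL1 (11.5) below it.

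**Figure D4:**
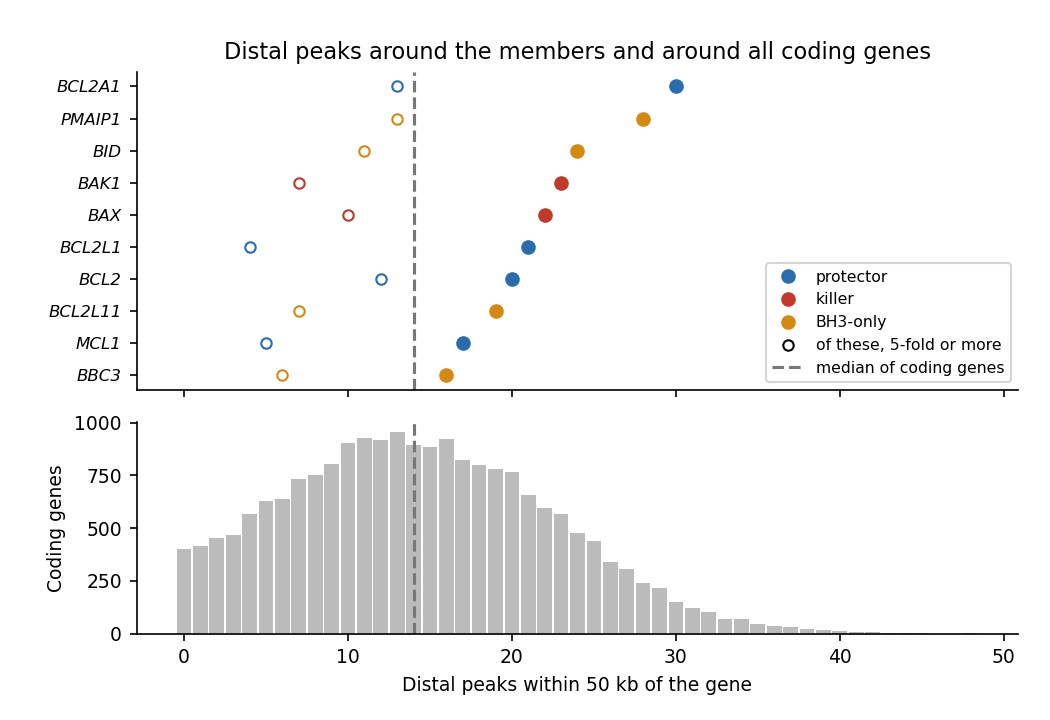
Distal peaks within 50 kb of each member (upper panel, filled circles; open circles count those of 5-fold or more) above the number of coding genes with each count (lower panel). All filled circles lie right of the dashed coding-gene median of 14, from 16 at BBC3 to 30 at BCL2A1.

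A distal peak near a gene can be nearer to another. All 28 distal peaks of PMAIP1 were nearest to PMAIP1 itself among coding gene ends, as were 21 of 30 at BCL2A1, 16 of 20 at BCL2, 14 of 23 at BAK1 and 10 of 19 at BCL2L11. This held for only 5 of 21 at BCL2L1, 3 of 22 at BAX, 3 of 16 at BBC3, 2 of 24 at BID and 1 of 17 at MCL1. The counts of these last 5 therefore describe shared neighbourhoods. A peak alone does not show which gene it acts on.

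The highest distal peak of the family, 159.8-fold over 4375 bp (chromosome 19, 47240814 to 47245188), lay 11.4 kb upstream of BBC3, in intergenic sequence, with BBC3 as the nearest coding gene. It was higher than any peak over BBC3 itself. At MCL1, a peak of 104-fold and 6884 bp (chromosome 1, 150610506 to 150617389) lay 32.1 kb upstream, but 9.52 kb from ENSA. These were the only members with a distal peak of 100-fold or more, against 13.4% of coding genes. With BCL2L1 (84.6-fold, the peak at its 3′ end), BAK1 (73.5-fold beyond its 3′ end and 52.95-fold 5.58 kb upstream), BCL2A1 (69.8-fold) and PMAIP1 (53.7-fold, chromosome 18, 59917076 to 59920142, 14.3 kb downstream), 6 of 10 had one of 50-fold or more, against 34.6% of coding genes.

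The other members had lower distal peaks. BID had 43.9-fold 7.13 kb upstream, nearer to MICAL3, and 34.4-fold 2.75 kb upstream inside the long non-coding RNA gene LINC00528. BCL2 had 39.7-fold over 5454 bp (63097297 to 63102750), 23.2 kb beyond its 3′ end, and 31.9-fold 48.1 kb beyond it, close to the 50 kb limit. BAX had 24.6-fold inside RUVBL2 and 23.4-fold inside GYS1. BCL2L11 had the lowest: 12.4-fold, 40.8 kb beyond its 3′ end inside the long non-coding RNA gene MIR4435-2HG, and 11.01-fold, 19.9 kb upstream inside ACOXL.

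The rest of the apoptosis pathway was followed in 45 genes of 6 lists. Of these, 41 had a summit at an end (91.1%, against 83.0% of coding genes). Above the median of coding genes were 29, and 50.0% of coding genes lie above it, which also applies to the counts by list below. The 13 other BCL2 family genes had a median of 65.7-fold, 7 of them above that median. Among these, BAD, a BH3-only gene, had 220.3-fold at its gene ends and 107-fold at its annotated starts. BMF, another BH3-only gene, had 161-fold. BOK, a relative of BAX, had 1.47-fold at its gene ends and 16.6-fold at its annotated start. Apoptosome and mitochondrial factors, most of which act after BAX and BAK1, had the highest median, 175-fold. They were led by HTRA2 (276-fold) and CYCS, which encodes cytochrome c (275-fold). Of these 8 genes, 7 lay above the coding-gene median. The exception was DIABLO, which encodes an antagonist of the inhibitors of apoptosis, with 1.61-fold at its gene ends but 294-fold at an annotated start, above the other start values of that list. Inhibitors of apoptosis had 87.05-fold, 5 of 5 above it, led by BIRC6 (229-fold) and BIRC2 (129-fold).

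Caspases had a median of 52.2-fold, with 3 of 6 above that of coding genes, among them CASP2 (147-fold). The death receptor pathway had 48.6-fold, with 5 of 10 above it, led by RIPK1 (119-fold) and CFLAR (113-fold). At its annotated starts CFLAR had only 17.5-fold. The 3 genes of MCL1 turnover had 90.4-fold, with FBXW7, which marks MCL1 for degradation, at 249-fold and USP9X, which removes that mark, at 90.4-fold. The 4 genes without a summit at a gene end were CASP6, CASP8, TNFRSF1A and TRADD, and each had an end window touched by a peak whose summit lay farther away. Of coding genes, 87.6% had an end window touched by a peak. CASP8 and CASP6 had 73.7-fold and 81.0-fold at an annotated start inside the gene record.

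**Figure D5:**
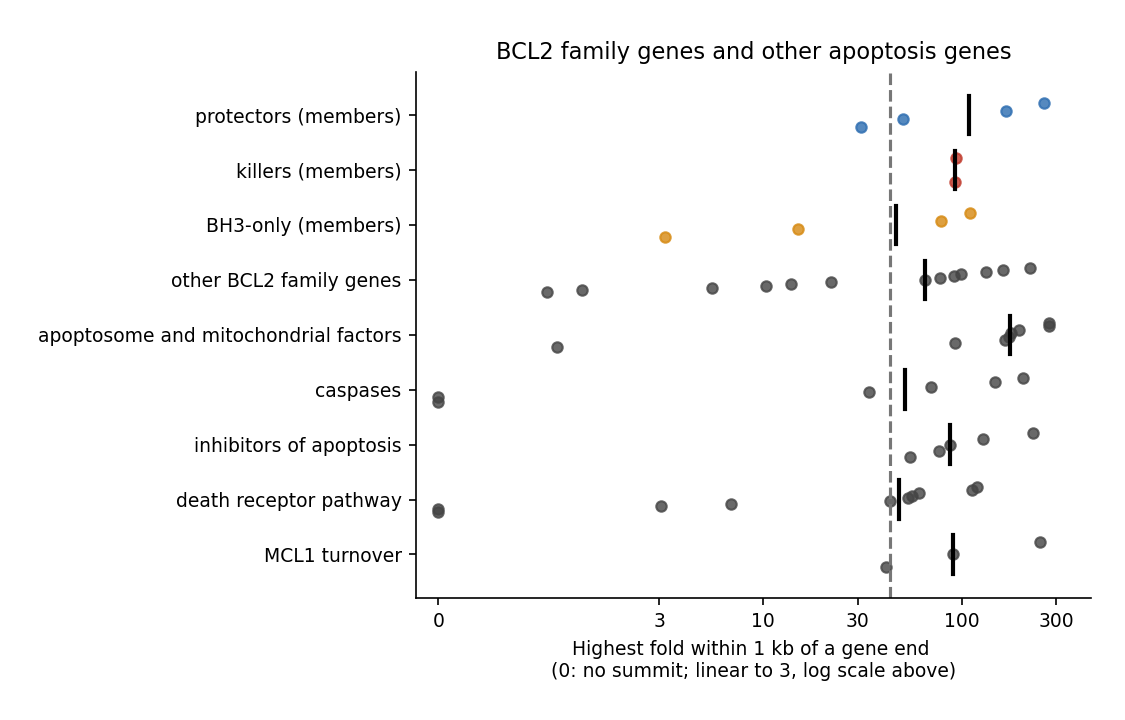
Highest fold within 1 kb of a gene end (x axis, 0 for no summit, linear to 3 and log scale above) for the members by role and for 6 lists of other apoptosis genes. Points are genes, black bars are list medians and the dashed line is the median of coding genes, 43.5-fold; apoptosome and mitochondrial factors have the highest median, 175-fold.

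The labelled cell type was set against its markers. Of 10 blood progenitor markers 8 had a summit at an end, against 83.0% of coding genes, and 10 had an end touched by a peak, against 87.6%. Their median of 34.4-fold was below the 43.5-fold of coding genes. When any overlap with the window counted it was 73.6-fold, above the 56.1-fold of coding genes. Peaks covered a median of 70.6% of these genes, against 12.6% of coding genes. Of 5 pluripotency markers 2 had a summit and 4 a touched end, with a median of 0. Of 5 endothelial markers 3 had a summit and 5 a touched end, with a median of 10.1-fold. Of 5 hepatocyte and 5 mesenchymal markers, 3 each had a summit and 3 each a touched end, with medians of 2.41-fold and 10.1-fold. By any overlap the medians were 2.38-fold for pluripotency, 28.4-fold for endothelial, 2.41-fold for hepatocyte and 10.1-fold for mesenchymal markers. In the counts of summits and touched ends the blood markers were thus near the share of all coding genes. These counts do not identify the cell type. Blood progenitors and residual other cells within a culture cannot be told apart in a pooled list.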

How the data were processed

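Members and gene lists were chosen with earlier results of these data known. Tools named per the submitters' processing notes are Bowtie2 2.2.8, Picard 2.2.4 and Trim Galore 0.6.5, with hg38 and GRCh38.p13 as builds. MACS 2.1.0 and GENCODE 36 are named in the deposited peak names. Which libraries were pooled is not given in the sources used here. The authors deposited for each peak a score, a fold enrichment (linear ratio to background), a −log10 p-value and a −log10 q-value; the score and q-value were not used. Fold and p match a single background pileup of 93.5 for the whole genome. Under it 100% of pileups below 1000 came out whole to within 0.1, and these gave the exact Poisson 95% intervals. A constant background does not correct for copy number or mappability. Depth per library is unknown.

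Gene positions are from RefSeq (GRCh38.p14, 19974 coding genes), and starts and strands from the RefSeq promoter table, which holds 9 of the 10 members. A peak was tied to a gene by its summit. Named genes are the members, the 2 highest distal peaks of each, and in each other list the 2 highest genes and those without a summit. BOK, DIABLO, USP9X, the starts of BAD, CFLAR, CASP6 and CASP8, and neighbouring genes were added to this rule after their values were seen. A gene that this rule names is not reported here. The planned contrast of doxycycline against no doxycycline had no per-library values to use, and no test was run. Alternatives changed the peak threshold, the windows and the rule that ties a peak to a gene. Python 3.11.15, numpy 2.4.6, pandas 2.3.3, scipy 1.17.1 and matplotlib 3.10.9 were used, and scripts were tested on simulated data.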

Additional observations from a re-analysis of the deposited data

How the results depend on the processing

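Members with a summit at an end numbered 9 or 10 of 10, and 8 of 9 with a start for annotated starts only. Members above the coding-gene median numbered 6 to 8 of 10, and 5 of 9 for annotated starts only. These counts stayed within 1.5 times of 10 and 7 under all 7 alternatives. Counting any overlap moved the median of BH3-only genes to 85.0-fold and of killers to 125-fold. Annotated starts only moved the median of protectors to 50.5-fold, since MCL1 drops out, and of BH3-only genes to 41.1-fold, since no BID summit lies at a start. Both were then below the coding-gene median of 56.2-fold. Fewer peaks gave fewer distal ones: with the more significant 50% of the peaks the medians were 10 for protectors, 12 for killers and 10.5 for BH3-only genes (7 over coding genes), and with peaks of 5-fold or more 8.5, 8.5 and 9 (5 over coding genes). Flanks of 20 or 100 kb, keeping peaks at other genes' ends and adding peaks inside the gene left these medians within 1.5 times. Of single genes, 6 of 69 folds at ends moved (BBC3 in 3, BID in 2, BAX in 1) and 20 of 60 distal counts. A stricter peak threshold cannot change the highest fold of a gene whose highest peak passes it. Unchanged folds under those alternatives are therefore no sign of stability. No paired analysis was possible because the list holds no value for any library. Depth per library is unknown. Counting intervals ran from 2.86 to 3.59-fold at BBC3 and from 258 to 264-fold at BCL2L1, and cover counting error only.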
